A study of Rattus norvegicus with 4 samples.

Results

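The 10 genes described here encode neural cell adhesion molecules of the immunoglobulin superfamily: the L1 family (L1cam, Chl1, Nrcam and Nfasc), the contactins Cntn1 and Cntn2, the neural cell adhesion molecules Ncam1 and Ncam2, and the related adhesion molecules Alcam and Nptn. They were taken by gene symbol from the 18755 genes listed for each library, and all 10 were found. RNA came from primary cells of the cerebral cortex of Sprague Dawley (SD) rat embryos at embryonic day 16, seeded at 100000 cells per well and cultured for 24 h on 1 of 4 hydrogels. The hydrogels carry the names SFMA, N-SFMA, L-SFMA and, for the pair of letters, NL-SFMA, and the cells, medium and culture time were the same for all 4. SFMA is the reference, and the other hydrogels carry the letter N, the letter L or both. The sources used here do not say what the letters stand for. The series concerns the action of cell-cell adhesion cues in a hydrogel on neural growth. There were 5 wells per hydrogel but 1 library, and the sources used here do not say whether wells were pooled.

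These proteins have an extracellular part built of immunoglobulin domains and, in most of them, fibronectin type III repeats, with which they bind each other or themselves on neighbouring cells. L1 family members cross the membrane and hold ankyrin and, through it, the spectrin skeleton, and they act in axon growth, bundling and guidance. Contactins have no cytoplasmic part and are anchored to the membrane by a lipid, so they signal with partners in the same membrane. Ncam1 carries polysialic acid in the developing cortex, a sugar chain that weakens adhesion between cells.

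Summed read counts lay between 14172205 for NL-SFMA and 17553098 for SFMA, and 16399 to 17156 genes had at least 1 read. Each hydrogel has 1 library and hence no replicate spread, so no difference between hydrogels was tested, and intervals cover counting error only. Mitochondrially encoded transcripts held 5.89% of the reads in NL-SFMA and 2.23% to 2.68% in the other libraries. Levels are in FPKM, read counts scaled to the length of the gene model and to the summed count of the library, and folds are ratios of counts scaled to the summed count (CPM) with an exact 95% counting interval. The differences that were counted are on the log2(FPKM + 1) scale, on which 1.5-fold is 0.58, and they understate the fold of genes with low levels. They were computed for the 12394 genes with at least 1 FPKM in at least 1 library. The 10 adhesion genes held 0.0962% of all reads in SFMA, and with the letters N, L and NL this share was 0.167%, 0.215% and 0.247%.

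Promoter entries in RefSeq (build GRCr8, 250 bases before to 50 bases after the start) were found for 7 of the 10 genes, with 8 entries in all, because Nfasc has 2 starts. L1cam, Nrcam and Ncam1 had none. The sequences of 4 genes are printed because they mark the range of responses below: Chl1 had the highest fold on NL-SFMA of the 4 L1 family genes, Cntn2 and Nfasc are neighbours with FPKM levels highest on L-SFMA, and Nptn differed least between the libraries. They lie at chr4:137847645-137847944 on the plus strand (Chl1), chr13:46527976-46528275 on the minus strand (Cntn2), chr13:46627799-46628098 on the minus strand (Nfasc, the start nearer to Cntn2) and chr8:67892460-67892759 on the plus strand (Nptn). Each is written 5′ to 3′ on its gene's strand, and capitals mark matches on either strand. The motifs searched were CAGATG (an E-box form), TATAAA (the TATA box), CAGCTG (another E-box form), GGGCGG (the GC box) and CCAAT (the CCAAT box).
Chl1: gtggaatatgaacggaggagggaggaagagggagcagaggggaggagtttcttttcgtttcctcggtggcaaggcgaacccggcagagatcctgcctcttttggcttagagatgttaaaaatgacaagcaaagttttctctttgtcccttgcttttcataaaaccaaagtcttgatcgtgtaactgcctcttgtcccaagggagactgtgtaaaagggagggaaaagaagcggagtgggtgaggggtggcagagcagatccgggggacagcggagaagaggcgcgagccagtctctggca
Cntn2: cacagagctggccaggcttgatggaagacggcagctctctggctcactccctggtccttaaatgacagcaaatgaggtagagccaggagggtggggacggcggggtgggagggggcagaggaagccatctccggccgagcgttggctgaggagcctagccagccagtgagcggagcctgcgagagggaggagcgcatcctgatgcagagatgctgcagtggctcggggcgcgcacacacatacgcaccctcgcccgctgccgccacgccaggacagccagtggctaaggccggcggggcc
Nfasc: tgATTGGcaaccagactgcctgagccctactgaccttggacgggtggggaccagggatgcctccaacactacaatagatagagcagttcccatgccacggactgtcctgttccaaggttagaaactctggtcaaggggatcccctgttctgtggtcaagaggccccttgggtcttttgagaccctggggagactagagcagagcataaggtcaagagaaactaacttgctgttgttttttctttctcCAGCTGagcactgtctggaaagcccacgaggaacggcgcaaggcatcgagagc
Nptn: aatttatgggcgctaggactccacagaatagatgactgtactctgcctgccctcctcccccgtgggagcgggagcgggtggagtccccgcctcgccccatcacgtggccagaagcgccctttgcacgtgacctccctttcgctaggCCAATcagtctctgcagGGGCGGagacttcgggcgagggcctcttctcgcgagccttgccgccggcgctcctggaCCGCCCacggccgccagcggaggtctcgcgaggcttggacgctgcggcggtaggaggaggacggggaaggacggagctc
Of all 33469 promoters in the same table, 16.6% held CAGATG, 15.1% CAGCTG, 14.2% TATAAA, 33.1% GGGCGG and 37.5% CCAAT, on either strand. E-boxes are read by basic helix-loop-helix factors. The Chl1 and Cntn2 windows had no match. The Nfasc window had 1 match to CCAAT and 1 to CAGCTG, and the Nptn window had 2 to GGGCGG and 1 to CCAAT. The printed matches do not overlap each other. GC content was 52.3% for Chl1, 53.7% for this Nfasc start, 67.0% for Cntn2 and 67.7% for Nptn, against a median of 51.7% over all promoters. Of the windows not printed, that of Ncam2 had a GC content of 72.7% and 2 matches to GGGCGG, and that of Cntn1 had 49.0% and 1 match to CAGATG. The windows of Alcam (62.0% GC) and of the other Nfasc start (51.3% GC) had no match. A match describes these letters and is not evidence that a factor binds there.

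Transcripts of 9 of the 10 genes were higher on each of the 3 lettered hydrogels than on SFMA, with counting intervals that all lay above 1. For Nptn this held on N-SFMA, by a narrow margin, and on NL-SFMA. The share of all genes with such intervals was not counted, so nothing is read from this count alone. It includes Ncam2, which passed the filter on low levels only through NL-SFMA. With the length trend removed, 9, 7 and 10 of the 10 differences were above 0 on N-SFMA, L-SFMA and NL-SFMA. Median log2 differences from SFMA over the 10 genes were 0.66, 1.10 and 1.18 on N-SFMA, L-SFMA and NL-SFMA, beside -0.02, 0.05 and -0.10 over all genes tested. Levels in FPKM as deposited followed 2 patterns. L1cam, Nfasc and Cntn2 were highest on L-SFMA, and the other 7 genes were highest on NL-SFMA. The place of L1cam and Nfasc rests on the scaling: the log2 difference of NL-SFMA from L-SFMA was -0.11 and -0.15 for them, but 0.06 and 0.02 with median-of-ratios scaling, and 0.02 and -0.02 with TMM scaling. Cntn2 was highest on L-SFMA with each of these scalings.

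**Figure D1:**
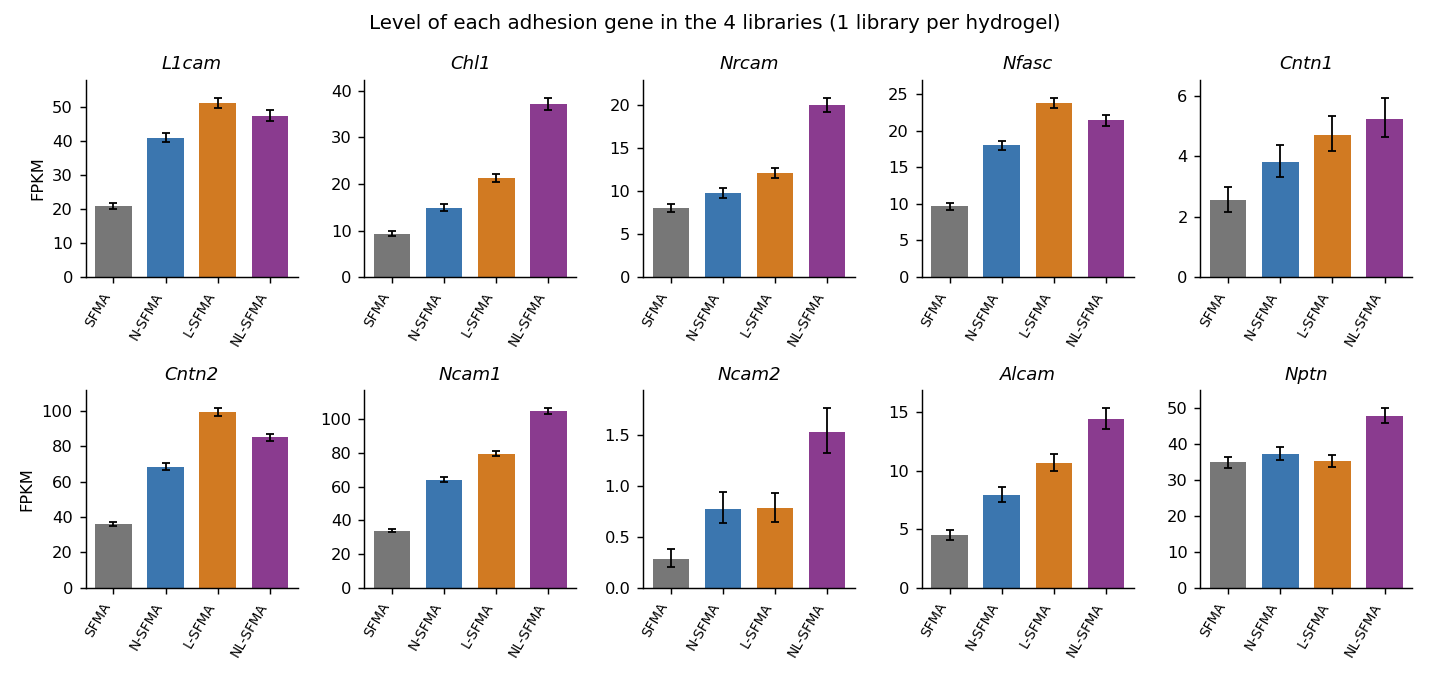
Level of each gene in FPKM (vertical axes from 0, a scale of its own for each gene) in the 4 libraries. Bars are the value of 1 library and error bars its 95% Poisson counting interval. L1cam, Nfasc and Cntn2 have their highest bar on L-SFMA in these deposited units, and the other 7 genes on NL-SFMA. With median-of-ratios scaling L1cam and Nfasc would be highest on NL-SFMA, and with TMM scaling L1cam would.

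L1cam (ENSRNOG00000061230), the founding member of the L1 family and a guide of growing axons, was at 21.0 FPKM on SFMA and at 40.9, 51.2 and 47.4 FPKM on N-SFMA, L-SFMA and NL-SFMA. Its folds over SFMA were 1.95 (1.85 to 2.06), 2.44 (2.32 to 2.57) and 2.26 (2.14 to 2.39), in the order of the letters N, L and NL, which the folds below follow too. The level on SFMA was the lowest and the other 3 lay close together. On NL-SFMA it was 0.926 times that on L-SFMA (0.887 to 0.966), a direction that turns with TMM or median-of-ratios scaling.

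Nfasc (ENSRNOG00000030515) encodes neurofascin, which gathers proteins at the axon initial segment and at nodes of Ranvier. Its level was 9.65 FPKM on SFMA and 18.0, 23.8 and 21.4 FPKM on N-SFMA, L-SFMA and NL-SFMA, the same order as for L1cam. Folds over SFMA were 1.86 (1.76 to 1.98), 2.46 (2.33 to 2.60) and 2.22 (2.09 to 2.35). The NL-SFMA level was 0.900 times the L-SFMA level (0.860 to 0.943), a direction that turns with median-of-ratios scaling.

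Chl1 (ENSRNOG00000045771), the close homolog of L1, is expressed in migrating and differentiating cortical neurons. It stood at 9.36 FPKM on SFMA and at 14.9, 21.3 and 37.2 FPKM on N-SFMA, L-SFMA and NL-SFMA, so each library was higher than the one before in this order. Its folds over SFMA were 1.59 (1.47 to 1.73), 2.27 (2.10 to 2.46) and 3.97 (3.69 to 4.28). Of the 12394 genes tested, 95 had a larger log2 difference between NL-SFMA and SFMA. Chl1 was also 1.75-fold higher on NL-SFMA than on L-SFMA (1.65 to 1.85).

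Nrcam (ENSRNOG00000004067), which acts in axon guidance and in the clustering of channels at nodes, had the smallest folds of the L1 family on N-SFMA and L-SFMA. It was at 8.05 FPKM on SFMA and at 9.76, 12.1 and 20.0 FPKM on N-SFMA, L-SFMA and NL-SFMA. The folds over SFMA were 1.21 (1.12 to 1.32), 1.51 (1.40 to 1.62) and 2.49 (2.32 to 2.67). Its level on NL-SFMA stood 1.65-fold above that on L-SFMA (1.55 to 1.76), while N-SFMA and L-SFMA were nearer to SFMA.

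The make-up of the L1 family differed between the libraries. Its summed level was 48.0 FPKM on SFMA and 83.5, 108 and 126 FPKM on N-SFMA, L-SFMA and NL-SFMA. L1cam held 43.7%, 48.9%, 47.3% and 37.6% of that sum in the same order. Chl1 held 19.5%, 17.8%, 19.6% and 29.5%, so its share was highest on NL-SFMA. Nrcam held 16.8%, 11.7%, 11.2% and 15.9%. Nfasc held 20.1%, 21.5%, 21.9% and 17%.

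**Figure D2:**
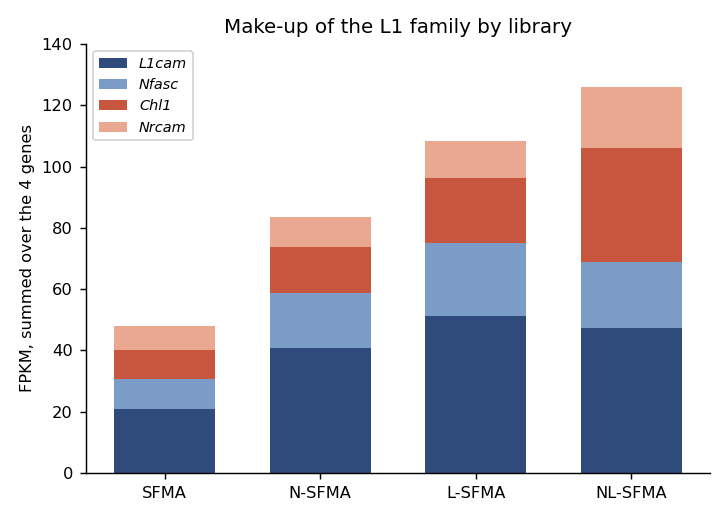
Summed level of the 4 L1 family genes in FPKM (vertical axis from 0) in each library, split by gene. The sum was 48.0 FPKM on SFMA and 126 on NL-SFMA, and the Chl1 segment makes up 19.5% of the SFMA bar and 29.5% of the NL-SFMA bar.

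Cntn2 (ENSRNOG00000009033), a contactin found on the axons of newly formed projection neurons, was the most abundant of the 10 genes per length on SFMA, N-SFMA and L-SFMA. Its level was 36.0 FPKM on SFMA and 68.4, 99.1 and 84.9 FPKM on N-SFMA, L-SFMA and NL-SFMA. The folds over SFMA were 1.90 (1.82 to 1.99), 2.75 (2.64 to 2.87) and 2.36 (2.26 to 2.46). Between L-SFMA and SFMA, 40 of the 12394 genes tested had a larger log2 difference. On NL-SFMA the gene was at 0.857 times its L-SFMA level (0.829 to 0.886).

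Cntn1 (ENSRNOG00000004438), a contactin that joins neurons to glial partners and binds the phosphatase receptor encoded by Ptprz1, was at a low level. It had 152 reads on SFMA and 199, 261 and 252 on N-SFMA, L-SFMA and NL-SFMA, which is 2.55, 3.80, 4.71 and 5.25 FPKM. Folds over SFMA were 1.49 (1.20 to 1.85), 1.84 (1.50 to 2.27) and 2.05 (1.67 to 2.53). The intervals of its levels on L-SFMA (4.16 to 5.32 FPKM) and NL-SFMA (4.62 to 5.93) overlap, and the fold between those libraries was 1.11 (0.933 to 1.33). Cntn2 made up 93.4% to 95.5% of the summed level of both contactins in the 4 libraries.

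Ncam1 (ENSRNOG00000031890), the principal carrier of polysialic acid, was at 33.8 FPKM on SFMA and at 64.1, 79.5 and 105 FPKM on N-SFMA, L-SFMA and NL-SFMA. It was 1.89-fold (1.83 to 1.96), 2.35-fold (2.27 to 2.43) and 3.09-fold (2.99 to 3.19) higher than on SFMA. The 4 counting intervals do not overlap, and NL-SFMA was 1.32-fold above L-SFMA (1.28 to 1.35). Ncam1 made up 98.6% to 99.2% of the summed NCAM level.

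Ncam2 (ENSRNOG00000002126), best known from olfactory axons, was barely detected, with 45 reads on SFMA and 108, 115 and 196 on the hydrogels with N, L and NL. The levels were 0.285 FPKM (0.208 to 0.381), 0.778 (0.638 to 0.939), 0.782 (0.645 to 0.938) and 1.54 (1.33 to 1.77). Its folds over SFMA were 2.73 (1.91 to 3.96), 2.75 (1.93 to 3.97) and 5.39 (3.88 to 7.64). The gene entered the tested genes only through NL-SFMA, where it is highest, so a difference there is built into the filter. N-SFMA and L-SFMA did not differ beyond counting error, at a fold of 1.01 (0.766 to 1.32).

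Alcam (ENSRNOG00000001989), an adhesion molecule of axons and a ligand of CD6, was at 4.49 FPKM on SFMA and at 7.96, 10.7 and 14.4 FPKM on N-SFMA, L-SFMA and NL-SFMA. Its folds over SFMA were 1.77 (1.56 to 2.02), 2.38 (2.11 to 2.70) and 3.21 (2.85 to 3.62). As for Chl1 and Ncam1, the level was lowest on SFMA and highest on NL-SFMA, with no overlap of the intervals.

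Nptn (ENSRNOG00000009029) encodes neuroplastin, a synaptic adhesion molecule and a subunit of plasma membrane calcium pumps. It was at 34.9 FPKM on SFMA and at 37.3, 35.2 and 47.8 FPKM on N-SFMA, L-SFMA and NL-SFMA. On SFMA its level was close to those of Cntn2 and Ncam1, and on L-SFMA it was well under them. The folds over SFMA were 1.07 (1.00 to 1.14), 1.01 (0.945 to 1.08) and 1.37 (1.29 to 1.46). The L-SFMA difference on the log2(FPKM + 1) scale was 0.01, and it turned to -0.04 with edgeR TMM scaling, -0.05 with median-of-ratios scaling and -0.04 with the length trend removed.

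The order of the levels per length changed in step with these patterns. On SFMA it ran from Cntn2 over Nptn, Ncam1, L1cam, Nfasc, Chl1, Nrcam, Alcam and Cntn1 to Ncam2, and the intervals of Cntn2 and Nptn, of Nptn and Ncam1, and of Nfasc and Chl1 overlap. On both N-SFMA and L-SFMA it was Cntn2, Ncam1, L1cam, Nptn, Nfasc, Chl1, Nrcam, Alcam, Cntn1 and Ncam2, with no overlap between neighbours. On NL-SFMA Ncam1 came before Cntn2, Nptn, L1cam, Chl1, Nfasc, Nrcam, Alcam, Cntn1 and Ncam2. There the intervals of Nptn and L1cam and of Nfasc and Nrcam overlap.

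By the 1.5-fold size rule, 6 of the 10 genes were higher on N-SFMA than on SFMA (L1cam, Chl1, Nfasc, Cntn2, Ncam1 and Alcam), where 7.24% of all genes tested were. None was lower, against 10.7% of all genes. On L-SFMA these 6 and Cntn1 were higher, where 14.8% of all genes were, and none was lower, against 11.1%. Nrcam missed the rule there at 0.54 on the log2(FPKM + 1) scale although its count ratio was 1.51. On NL-SFMA all but Nptn were higher, where 21.6% of all genes were higher and 29.3% lower. That count includes Ncam2, which passed the filter on low levels only through NL-SFMA, so nothing is read from its place there. At 2-fold, the members higher were 0 on N-SFMA (0.855% of all genes), 6 on L-SFMA (3.32%) and 7 on NL-SFMA (10.1%). The 3 comparisons share the SFMA library, so their values are not independent of each other.

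On L-SFMA against N-SFMA none of the 10 genes passed 1.5-fold either way, where 3.00% of all genes were higher and 1.09% lower. Cntn2 came nearest, at 1.45-fold (1.40 to 1.50), and 9 of the 10 log2 differences were above 0. With edgeR TMM or median-of-ratios scaling 8 were. On NL-SFMA against N-SFMA Chl1 (2.49-fold, 2.34 to 2.66), Nrcam (2.05, 1.91 to 2.20), Alcam (1.81, 1.64 to 2.01) and Ncam1 (1.63, 1.59 to 1.68) passed, where 12.5% of all genes were higher and 18.0% lower. On NL-SFMA against L-SFMA Chl1 and Nrcam passed, where 7.23% were higher and 20.9% lower. The median log2 difference of the 10 genes was 0.39 in that last comparison, beside -0.13 over all genes. Both medians moved up with the other scalings. They were 0.52 and -0.02 with TMM and 0.56 and 0.01 with median-of-ratios scaling.

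The libraries differed along gene model length, and all 10 genes have models longer than the median of the tested genes. Their lengths ran from 3121 bases for Nptn to 10670 for Nfasc, with a median of 5774 against 2968 over all genes tested. Across the 12394 genes, the log2 difference from SFMA correlated with log2 length at r = 0.46, 0.53 and 0.50 on N-SFMA, L-SFMA and NL-SFMA, as a description across genes that share a library. The smooth trend reached 0.44, 0.69 and 0.90 at the length of Nfasc. At the length of Nptn it was -0.04, 0.05 and -0.09. The part of RNA quality or fragment capture in this trend was not tested.

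**Figure D3:**
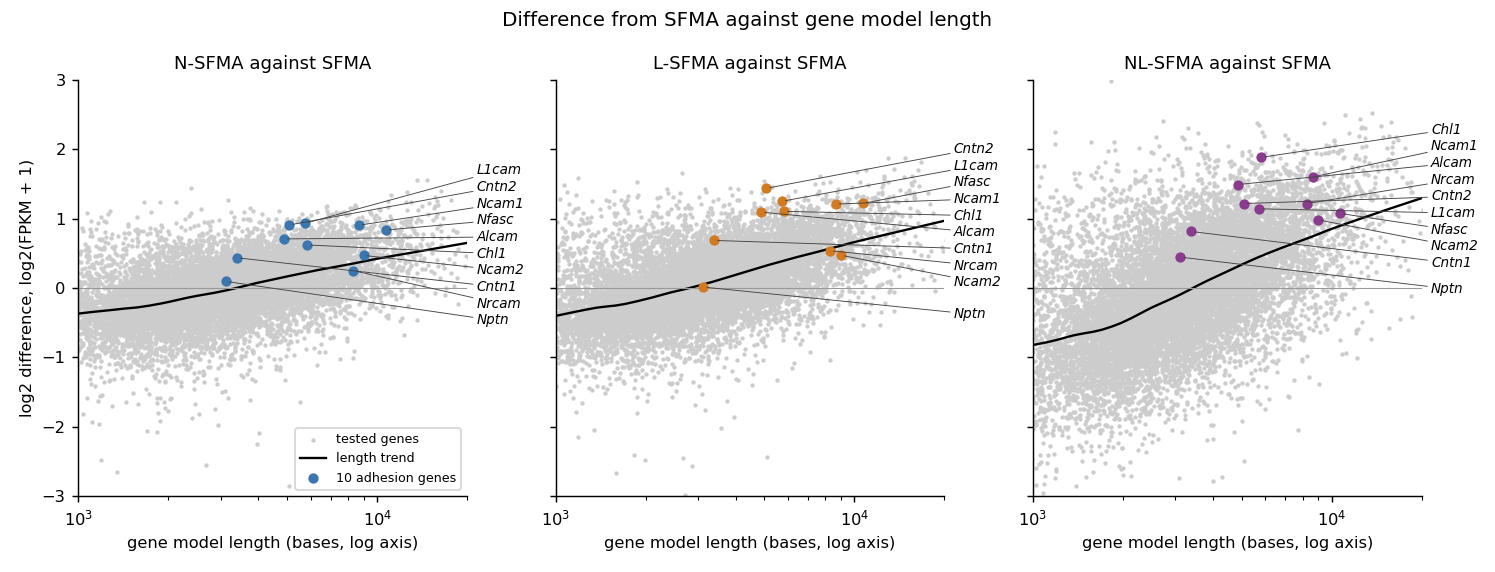
Log2 difference from SFMA, on the log2(FPKM + 1) scale (vertical axis), against gene model length in bases (horizontal log axis) for the tested genes within the axes (grey) and the 10 adhesion genes (coloured), with the smooth length trend as a line. Cntn2, L1cam, Chl1 and Alcam lie above the line in all 3 panels, while Nrcam, Nfasc and Ncam2 lie near it in at least 1.

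With the length trend removed, the median difference of the 10 genes from SFMA was 0.41, 0.60 and 0.76 on N-SFMA, L-SFMA and NL-SFMA. L1cam and Cntn2 then passed 1.5-fold on N-SFMA, where 5.83% of all genes were higher. On L-SFMA 6 genes passed, L1cam, Chl1, Cntn1, Cntn2, Ncam1 and Alcam, against 7.82% of all genes. The same 6 passed on NL-SFMA, where 19.0% of all genes did. Given in the order of the letters N, L and NL, the values of Cntn2 were 0.74, 1.11 and 0.87, and those of L1cam 0.71, 0.86 and 0.69. Chl1 was at 0.39, 0.71 and 1.42 and Alcam at 0.55, 0.79 and 1.18, so both had their largest value on NL-SFMA here too. Ncam1 was at 0.54, 0.62 and 0.85, and Cntn1 at 0.43, 0.59 and 0.83. Nfasc, the longest, was at 0.39, 0.53 and 0.18. Nrcam, at -0.10, -0.03 and 0.50, and Ncam2, at 0.09, -0.14 and 0.21, were within the 1.5-fold rule on this scale on all 3 hydrogels. Their signs on L-SFMA differ from those without the removal, and so does the sign of Nrcam on N-SFMA. The pseudocount of 1 FPKM compresses the low levels of Ncam2. Its L-SFMA difference before the removal was 0.47, and 1.20 with a pseudocount of 0.1 FPKM, at a count ratio of 2.75. The sign and size of Ncam2 with the trend removed are thus not read as a result.

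**Figure D4:**
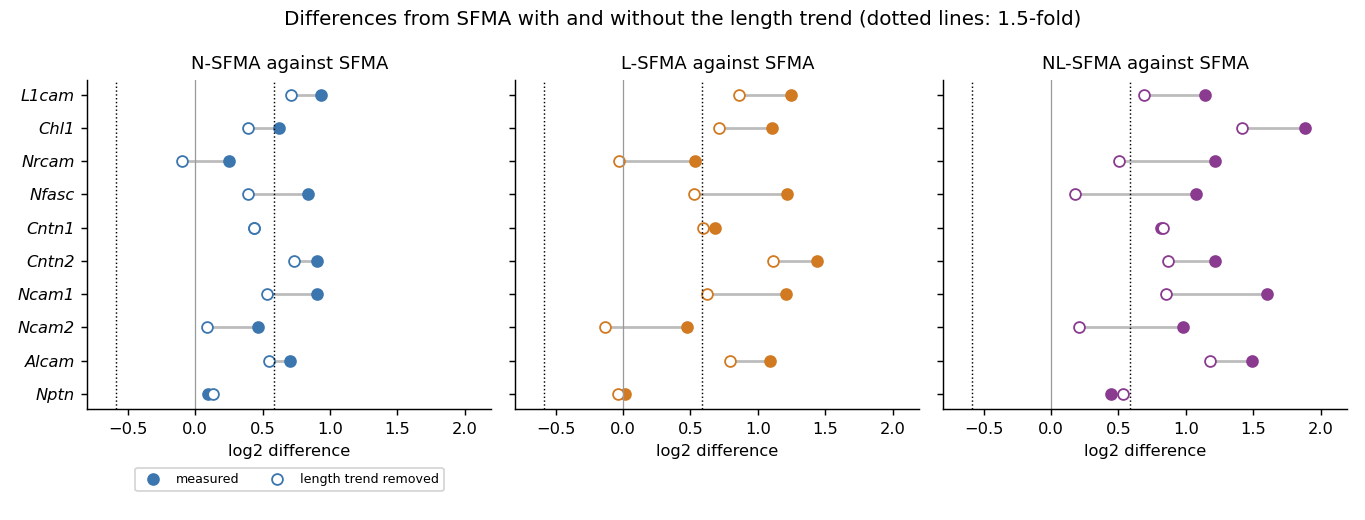
Log2 difference from SFMA (horizontal axis, log2(FPKM + 1) scale) of each gene in the 3 comparisons, as measured (filled) and with the length trend removed (open). Dotted lines stand at 1.5-fold. Open points of L1cam and Cntn2 lie beyond the right dotted line in all 3 panels, and those of Nrcam, Nfasc, Ncam2 and Nptn lie within both lines in all 3. The low levels of Ncam2 are compressed on this scale.

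The names of the hydrogels can be read as N and L, alone or together, if each letter means the same in both names that hold it. The step from SFMA to N-SFMA on the log2(FPKM + 1) scale was 0.93 for L1cam, 0.83 for Nfasc and 0.91 for Cntn2, whereas the step from L-SFMA to NL-SFMA was -0.11, -0.15 and -0.22. With TMM scaling the latter steps were 0.02, -0.02 and -0.09, and with median-of-ratios scaling 0.06, 0.02 and -0.05. The sign for L1cam and Nfasc thus depends on the scaling. The steps beside L were -0.17 for L1cam, -0.35 for Nfasc and -0.25 for Cntn2 with the length trend removed. For Chl1 the N step was 0.62 without L and 0.78 with it, and for Nrcam it was 0.25 and 0.68. Ncam1 went from 0.90 to 0.39 and Alcam from 0.71 to 0.40, so their N step was smaller beside L but stayed above 0. Cntn1 went from 0.43 to 0.13. Nptn had steps of 0.09 and 0.43. Ncam2 had steps of 0.47 and 0.51, but its low levels make them depend on the pseudocount. With a pseudocount of 0.1 FPKM they were 1.19 and 0.89.

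The steps for L differed in the same genes. From SFMA to L-SFMA the step was 1.44 for Cntn2, 1.25 for L1cam and 1.22 for Nfasc, and from N-SFMA to NL-SFMA it was 0.31, 0.21 and 0.24. The latter steps were 0.13, -0.02 and -0.21 with the length trend removed, so the sign turns for L1cam and Nfasc. Chl1 had L steps of 1.10 and 1.26 without and with N, and Nrcam of 0.54 and 0.96. The NL-SFMA difference from SFMA minus the sum of both single differences was -1.13 for Cntn2, -1.04 for L1cam, -0.98 for Nfasc and -0.51 for Ncam1. It was -0.31 for both Cntn1 and Alcam, 0.04 for Ncam2, 0.16 for Chl1, 0.34 for Nptn and 0.43 for Nrcam, beside a median of -0.13 over all genes tested. For Ncam2 the sign depends on the pseudocount, and the value was -0.30 with 0.1 FPKM, beside a median of -0.18. With the length trend removed this departure from the sum was -0.98 for Cntn2, -0.88 for L1cam, -0.74 for Nfasc and 0.63 for Nrcam. A model of both letters was not fitted, and these departures have no replicate behind them.

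**Figure D5:**
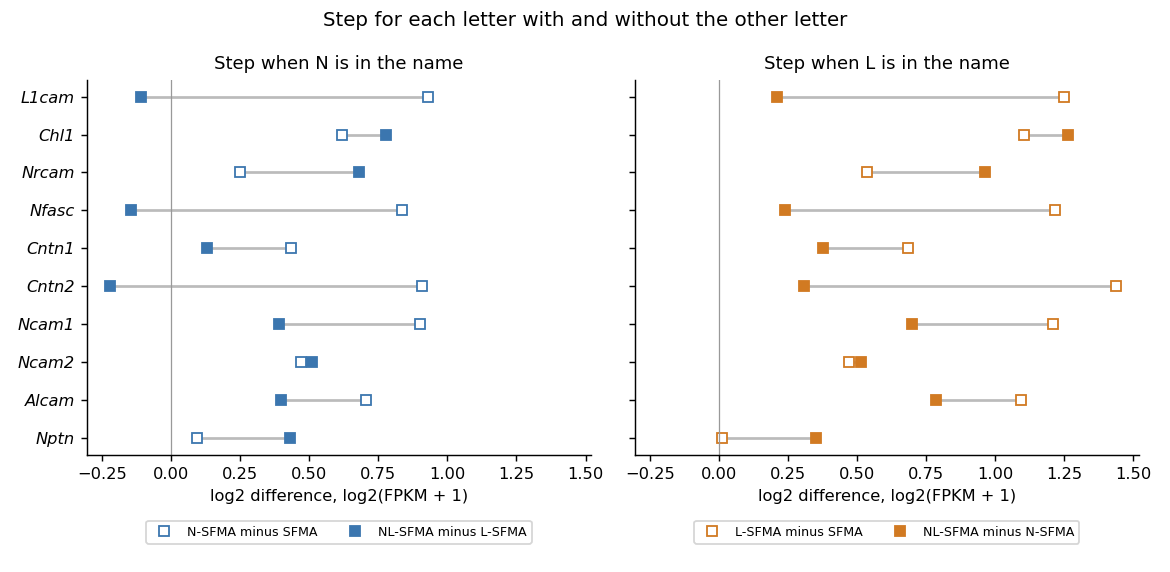
Log2 step, on the log2(FPKM + 1) scale (horizontal axes), that goes with the letter N (left) and the letter L (right) for each gene, without the other letter (open squares) and with it (filled squares). For L1cam, Nfasc and Cntn2 the filled squares lie far to the left of the open ones, and for Chl1, Nrcam and Nptn they lie to the right.

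Markers of other cells differed between the libraries along with the adhesion genes. Of all genes tested, 7.24%, 14.8% and 21.6% were at least 1.5-fold higher than on SFMA with N, L and NL, and 10.7%, 11.1% and 29.3% lower. The counts of markers here and in the next paragraph stand beside these shares. Of 12 neuron markers, 4, 5 and 5 were at least 1.5-fold higher on the hydrogels with N, L and NL, and none was lower. Their summed level was 2730 FPKM on SFMA and 3717, 3017 and 2917 FPKM on N-SFMA, L-SFMA and NL-SFMA. Most of each sum was Tubb3, at 1882, 2602, 1957 and 1659 FPKM in the same order. The median log2 differences of the 12 markers from SFMA were 0.45, 0.48 and 0.56 with N, L and NL. Excitatory neuron markers had 4, 7 and 6 of 10 higher and 0, 0 and 1 lower, with summed levels of 550, 681, 746 and 685 FPKM. Radial glia and progenitor markers had 9, 5 and 9 of 12 lower and 1, 2 and 0 higher, and their summed level was 1671 FPKM on SFMA and 789 to 829 on the other hydrogels. Markers of dividing cells had 7, 6 and 7 of 10 lower and 1, 1 and 2 higher, with a sum of 547 FPKM on SFMA and 290 to 320 elsewhere. With the length trend removed, 6, 4 and 7 neuron markers and 3, 4 and 4 excitatory neuron markers were higher, and none lower. Radial glia and progenitor markers then had 6, 4 and 7 lower and 1, 2 and 1 higher. Markers of dividing cells had 5, 8 and 5 lower and 0, 0 and 1 higher. Of all genes, 5.83%, 7.82% and 19.0% were then higher and 6.66%, 7.94% and 19.5% lower. The part of cell make-up in the differences of the 10 genes was not tested. In bulk RNA, fewer cells of a type and less RNA per cell cannot be told apart.

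Astrocyte markers had 5, 2 and 6 of 9 tested lower and 0, 1 and 1 higher, from a sum of 306 FPKM on SFMA to 155, 205 and 86.5. Inhibitory interneuron markers had 1, 1 and 6 of 9 lower, from a sum of 370 FPKM on SFMA to 272, 243 and 135. The 1 lower on N-SFMA and on L-SFMA was Sst, at 204 FPKM on SFMA and 110, 82.3 and 34.5 on the others. Median differences of the 9 markers were -0.05, -0.02 and -0.73. With the length trend removed, 0, 1 and 4 of the 9 were lower. Astrocyte markers then had 4, 1 and 6 lower and 1, 1 and 1 higher. The erythroid, microglial and oligodendrocyte lineage counts given next did not change. All 6 tested erythroid markers were lower on each lettered hydrogel, from a sum of 552 FPKM to 164, 92.0 and 70.7. Microglial markers, with 2, 0 and 2 of 3 tested lower, summed to 21.9 FPKM on SFMA and 8.21, 15.9 and 6.82 on the others, with P2ry12 at 0 on N-SFMA and C1qa at 0 on NL-SFMA. Oligodendrocyte lineage markers, with 3, 2 and 3 of 5 tested lower and 0, 1 and 1 higher, summed to 9.11 to 16.5 FPKM, and meningeal markers to 1.75 to 2.96, with Dcn at 0 on L-SFMA and Lum, Foxc1 and Slc13a4 at 0 on NL-SFMA. None of the 9 endothelial and pericyte markers reached 1 FPKM in any library, with Cdh5 and Abcc9 at 0 on N-SFMA, Kcnj8 and Abcc9 on L-SFMA and Kcnj8 on SFMA.

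Partner genes of these adhesion molecules were taken from 7 lists with 62 genes, of which 61 were found and 53 tested. At least 1.5-fold higher than on SFMA were 9, 15 and 21 of the 53 on N-SFMA, L-SFMA and NL-SFMA, and 1, 0 and 3 were lower. Of all genes tested, 7.24%, 14.8% and 21.6% were higher and 10.7%, 11.1% and 29.3% lower. With the length trend removed 8, 11 and 17 of the 53 were higher, where 5.83%, 7.82% and 19.0% of all genes were, and 1, 0 and 6 were lower, where 6.66%, 7.94% and 19.5% were. The median differences were 0.18, 0.35 and 0.50, and they were 0.08, 0.11 and 0.18 with the length trend removed. The counts of the single lists below stand beside the same shares of all genes. Where 3 values or counts follow each other they are given in the order of the letters N, L and NL, and where 4 levels do, that of SFMA comes before them.

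Intracellular adaptors that tie the L1 family to the cytoskeleton had 5 of 12 members higher on each lettered hydrogel, with 0, 0 and 1 lower. Ank2, a brain ankyrin, was at 6.28 FPKM on SFMA and at 18.2, 22.6 and 31.7 FPKM on N-SFMA, L-SFMA and NL-SFMA. Ank3, which encodes the ankyrin of the axon initial segment, was at 4.48, 12.2, 13.1 and 21.1 FPKM in the same order. The spectrin gene Sptbn1 was at 19.2, 44.3, 44.9 and 59.7 FPKM. Dcx, a microtubule-binding protein of young neurons that also binds neurofascin, was at 68.3, 140, 161 and 266 FPKM. These 4 were named for the size of their difference between NL-SFMA and SFMA, so their order is favoured by that choice. Other adaptors, chosen here after their values were seen, were not highest on NL-SFMA: Ezr, which links membrane proteins to actin, was at 50.6, 54.6, 51.8 and 34.7 FPKM, and the clathrin adaptor gene Ap2m1 at 441, 380, 335 and 270. Ank2 and Ank3 have models of 16366 and 17586 bases, and their NL-SFMA differences of 2.17 and 2.01 were 1.00 and 0.80 with the length trend removed.

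Kinases, phosphatases and co-receptors had 2, 3 and 3 of 11 tested members higher and 0, 0 and 1 lower. Nrp1, the semaphorin receptor that works with L1cam, was at 9.15 FPKM on SFMA and at 18.6, 28.5 and 32.9 FPKM on N-SFMA, L-SFMA and NL-SFMA. Nrp2, which works with Nrcam, was at 4.00, 8.61, 12.2 and 10.3 FPKM, highest on L-SFMA. The kinase gene Pak1, which acts below several adhesion receptors, was at 60.8, 86.5, 77.5 and 113 FPKM. Fgfr1, a growth factor receptor that binds Ncam1, was at 58.7, 45.6, 60.6 and 34.9 FPKM, so it was lowest on NL-SFMA, where Ncam1 was highest.

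Proteases that shed or cut these molecules had 0, 2 and 3 of 6 members higher and none lower. The sheddase gene Adam10 was at 12.9 FPKM on SFMA and at 19.3, 21.1 and 25.0 with N, L and NL. Bace1, whose protease cuts the Chl1 protein, was at 16.4, 23.1, 28.4 and 31.2 FPKM. The convertase gene Furin was at 11, 8.87, 11.8 and 7.06 FPKM, lowest on NL-SFMA, where Adam10 and Bace1 were highest.

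Of 5 genes for polysialic acid and HNK-1 sugar synthesis, 1 was higher in each comparison and none lower. That gene was St8sia2, the polysialyltransferase of the embryonic brain, at 24.8 FPKM on SFMA and at 45.7, 50.03 and 68.6 FPKM on N-SFMA, L-SFMA and NL-SFMA. The other polysialyltransferase, St8sia4, was at 3.98, 3.61, 4.03 and 6.44 FPKM. B3gat2, an enzyme of HNK-1 synthesis, was at 5.39, 5.24, 6.89 and 4.56 FPKM. The HNK-1 sulfotransferase gene Chst10 was at 26.6, 29.8, 31.6 and 22.7 FPKM.

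Extracellular ligands and receptors on other cells had 0, 1 and 4 of 8 tested members higher and 1, 0 and 0 lower. Ptprz1, the contactin-binding phosphatase receptor of glia, was at 20.0 FPKM on SFMA and at 17.7, 26.8 and 36.8 with N, L and NL. Its relative Ptprg was at 3.29, 3.70, 3.88 and 6.16 FPKM. Notch1, a receptor for Cntn1, was at 5.62, 7.40, 12.04 and 10.4 FPKM, and the integrin gene Itgb1 at 38.5, 35.7, 43.0 and 53.2. With the length trend removed, the NL-SFMA differences of Ptprz1, Ptprg and Notch1 were 0.17, 0.09 and -0.03.

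Of the neuroplastin partners, 1, 3 and 4 of 9 were higher and 0, 0 and 1 lower. Atp2b1, a plasma membrane calcium pump that neuroplastin holds at the membrane, was at 8.87, 15.5, 21.9 and 24.8 FPKM. Its relative Atp2b2 was at 3.92, 5.67, 7.26 and 6.26 FPKM, and the signalling adaptor gene Traf6 at 2.14, 2.89, 4.89 and 6.82. Bsg, which encodes the neuroplastin relative basigin, was at 265, 185, 177 and 80.7 FPKM, lowest on NL-SFMA, where Nptn was highest. Contactin-associated genes had 2 tested members, with Cntnap2, a partner of Cntn2, at 5.84, 7.26, 5.95 and 8.05 FPKM and Cntnap4 at 2.77, 2.62, 3.99 and 5.17. Only Cntnap4 on NL-SFMA passed 1.5-fold among them. Of the other contactins, Cntn3, Cntn4, Cntn5 and Cntn6 were under 1 FPKM in every library.

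Other neural adhesion genes of the immunoglobulin superfamily, 25 in a list of which 23 were tested, were a comparison set. At least 1.5-fold higher than on SFMA were 4, 8 and 8 of them on the hydrogels with N, L and NL, and 0, 1 and 4 were lower. With the length trend removed 2, 4 and 6 were higher and 1, 1 and 6 lower, beside the same shares of all genes as for the partners. Their median differences were 0.13, 0.18 and 0.32, against 0.66, 1.10 and 1.18 for the 10 genes. With the length trend removed the medians were -0.06, 0.01 and 0.08, against 0.41, 0.60 and 0.76 for the 10 genes. Opcml, an IgLON gene of neuronal surfaces, was at 7.77, 12.2, 12.8 and 29.4 FPKM, and its relative Negr1 at 9.48, 19.0, 18.3 and 27.9. Cadm2, a synaptic adhesion gene, was at 6.91, 9.72, 13.1 and 20.8 FPKM. Dscam, which acts in self-avoidance of neurites, was at 3.33, 6.71, 10.03 and 9.81 FPKM, so L-SFMA and NL-SFMA were close. These 4 were named for the size of their difference between NL-SFMA and SFMA, so their order is favoured by that choice. Others of the set, chosen here after their values were seen, were lowest on NL-SFMA. Cadm4 was at 261, 286, 305 and 120 FPKM, and Nectin2 at 18.3, 14.0, 15.9 and 7.83. These lists were chosen with earlier results of these libraries known, and the difference between the sets was not tested.

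The genes most like each member were those with the shortest distance over the 3 log2 differences from SFMA, among 8978 genes with at least 5 FPKM in at least 1 library. For Cntn2 they were Nrp2, at a distance of 0.07, and Igsf3 at 0.09. For L1cam they were Chd6 (0.09) and Ylpm1 (0.14), and Chd6 was also the nearest to Nfasc (0.06), followed by Ptprk (0.15). Chl1 had Grin2b (0.11), a glutamate receptor subunit gene, and Zfp292 (0.12). Ncam1 was most like Nav3 (0.03) and Wdfy3 (0.07), and Alcam most like Trim2 (0.03) and Mib1 (0.05). Nrcam was most like Slc35f1 and Kntc1 (both 0.05), Cntn1 like Ofd1 (0.03) and Fchsd2 (0.04), Ncam2 like Zfp780b-ps1 and Gucy1a1 (both 0.04), and Nptn like Nt5c3a (0.04) and Dcun1d1 (0.06). Within 0.25 of a member lay 11 genes for Cntn2, 17 for L1cam, 21 for Nfasc, 34 for Chl1 and 69 for Ncam1. The count was 143 for Alcam, 145 for Nrcam, 332 for Cntn1, 333 for Nptn and 347 for Ncam2. The distances keep the length trend and use the log2(FPKM + 1) scale, which compresses the differences of Ncam2. Its similar genes are therefore not alike in fold.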

How the data were processed

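RNA of 4 hydrogel cultures, with 1 poly(A) library each, was sequenced with NEBNext Ultra libraries on an Illumina NovaSeq instrument, per the labels' protocols. The deposited count column holds whole reads per gene, made with HISAT2, for which no version is given, and HTSeq 0.13.5, per the submitters' processing notes. The deposited FPKM column is the count over model length and summed count. This was checked by recovering the length of each gene, which was the same in all 4 libraries to within 1e-06 bases. The rat build mRatBN7.2 and the human build GRCh38 are both named without a role in those notes. The sources used here do not give the strand setting of the counting, so antisense reads cannot be told apart.

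Log2 differences used FPKM with a pseudocount of 1, and folds used CPM, the count over the summed count, with exact Clopper-Pearson 95% intervals conditional on both counts. Reads amplified by PCR and without molecular identifiers do not stand for independent molecules, so these intervals, and the Poisson intervals of the levels, cover counting error only. The floor of 3 counts was 0.171 to 0.212 CPM. The length trend was a lowess fit (span 0.3) over the 12394 genes tested, checked on simulated data. The alternatives were pseudocounts of 0.1 and 5 FPKM, edgeR 4.0.16 TMM factors, median-of-ratios size factors, summed counts without mitochondrial genes, removal of the length trend, no filter on low values and a 2-fold rule. Python 3.11.15, statsmodels 0.14.6 and scipy 1.17.1 were used. The members, gene lists and rules were chosen with earlier results of these data known, and the promoter motifs after the values were seen. All 10 members were named, with up to 4 partner genes per list that had the largest NL-SFMA difference from SFMA and at least 5 FPKM in the higher library, and the 2 most similar genes per member, and 1 gene that the rule names is not reported here. Of 109 cell markers in 11 lists, 104 were found. The L-SFMA and NL-SFMA titles are written L@SFMA and NL@SFMA in the treatment labels and were taken as the same hydrogels. Coordinates are those of RefSeq on GRCr8, not of the authors' build.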

Additional observations from a re-analysis of the deposited data

Results flagged for a closer look

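In 3 of the 10 genes the step that goes with the letter N pointed one way without L and the other way with it. It was 0.93 from SFMA to N-SFMA and -0.11 from L-SFMA to NL-SFMA for L1cam, a difference of -1.04. For Nfasc the steps were 0.83 and -0.15, a difference of -0.98, and for Cntn2 0.91 and -0.22, a difference of -1.13. Over all genes tested the median steps were -0.02 and -0.13, and the median difference was -0.13. The share of all genes whose step turned in this way was not counted, so the count of 3 has no background. Each step rests on 1 library per hydrogel, and the difference was not tested. With median-of-ratios scaling the steps beside L were 0.06 for L1cam and 0.02 for Nfasc, above 0, and -0.05 for Cntn2.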

How the results depend on the processing

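The number of the 10 genes at least 1.5-fold higher moved by more than 1.5 times in 3 of the 6 comparisons. On N-SFMA against SFMA it was 6, and 2 with the length trend removed and 0 at 2-fold. On NL-SFMA against N-SFMA it was 4, and 1 at 2-fold. On NL-SFMA against L-SFMA it was 2, and 1 with a pseudocount of 5 FPKM, 4 with median-of-ratios scaling, 1 with the length trend removed and 0 at 2-fold. The cause was not tested, except that a 2-fold rule is stricter by construction. No gene was counted as lower in any of the settings with a 1.5-fold or 2-fold rule. Of 60 single differences, those that moved beyond their counting interval numbered 42 with the length trend removed, 28 with a pseudocount of 5 FPKM, 23 with median-of-ratios and 14 with TMM scaling, and 5 each with a pseudocount of 0.1 FPKM and without mitochondrial genes. Dropping the filter on low values moved none by construction, since the filter does not enter a gene's own difference. Of the 10 departures from the sum of single steps, 6 moved with the length trend removed. No replicate could be left out, since each hydrogel has 1 library. No paired analysis was possible because no group holds replicates. Depth limits Ncam2 and Cntn1 most, with 45 and 152 reads on SFMA.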

Other observations

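Cntn2 and Nfasc are next to each other on rat chromosome 13 in RefSeq (GRCr8), with 0 protein-coding genes between them, and both were highest on L-SFMA in FPKM, though with median-of-ratios scaling Nfasc was 0.02 higher on NL-SFMA on the log2 scale. Rbbp5, a chromatin regulator gene on the other side of Cntn2, was nearly level, at 13.7 FPKM on SFMA and 14.6, 15.01 and 15.3 with the letters N, L and NL. Dstyk, a kinase gene beyond it, was at 3.08, 4.18, 5.78 and 4.30 FPKM. Beside L1cam, the neighbour Pdzd4 was at 38.4, 54.7, 58.6 and 41.4 FPKM, so it was also highest on L-SFMA. Hcfc1, a transcription co-regulator gene within 100000 bases of L1cam, was at 17.9, 33.3, 35.3 and 44.2 FPKM and highest on NL-SFMA. Other genes near L1cam were highest on SFMA, with Ssr4 at 36.5, 28.0, 20.8 and 15.3 FPKM, Naa10 at 41.3, 31.1, 27.1 and 20.4 and Idh3g at 75.6, 62.7, 59.2 and 64.2. Next to Alcam, the ubiquitin ligase gene Cblb was at 5.85, 10.2, 11.1 and 14.9 FPKM, and next to Nrcam the lipase gene Pnpla8 was at 15.2, 20.4, 22.6 and 38.8 FPKM. Near Nptn, Insyn1 was at 25.6, 20.2, 25.0 and 13.1 FPKM, lowest on NL-SFMA, and Cd276 at 13.3, 12.7, 15.9 and 15.1. The neighbours were looked up after the values of the adhesion genes were seen, and likeness between neighbours was not tested.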
